A study of Mus musculus with 16 samples.

Results

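The solute carriers are the largest superfamily of membrane transporters, and this account describes their mRNAs in a CPEB4 RNA-immunoprecipitation and sequencing (RIP-seq) experiment in mouse macrophages. A gene was taken as a member when its symbol starts with Slc followed by a digit and its 3′-UTR had 20 or more reads in the 4 Input libraries together. Each gene was represented by 1 region, the annotated 3′-UTR with the most reads over all 8 libraries. The rule gave 155 members, from 279 Slc symbols with 520 regions, among 8200 genes that passed the same minimum. The other 124 symbols had fewer reads, and 57 of them had none in any Input library. Slc30a6 and Slc46a3, with 20 Input reads each, were just inside the minimum, and Slc25a14 and Slc43a3, with 19 each, just outside. The members belong to 43 families and lie on 20 chromosomes, with 32 in the mitochondrial Slc25 family and 18 in the Slc35 family, which includes the nucleotide sugar carriers. A symbol of this form does not always name a carrier: Slc7a6os, Slc4a1ap and Slc9a3r1 are named after a carrier gene or protein and were kept because the rule takes them.

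Solute carriers move amino acids, sugars, metal ions, nucleosides, vitamins and metabolites across the plasma membrane and the membranes of organelles. In macrophages they feed the metabolic programme that follows activation: glucose and lactate carriers serve glycolysis, cationic amino acid carriers bring in arginine, the cystine carrier serves glutathione synthesis, and metal carriers hold iron, zinc or copper back from microbes or pass them on. CPEB4 binds RNA at U-rich motifs of the 3′-UTR called cytoplasmic polyadenylation elements (CPEs) and acts on poly(A) tail length, translation and stability of the bound mRNA.

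The cells were bone marrow-derived macrophages (BMDMs), grown from marrow of adult mice of strain C57BL/6J 129 with L-cell conditioned medium as the source of M-CSF. Wildtype (WT) cells, numbered 76, and CPEB4 KO cells, numbered 73, were left untreated or kept for 9 h in lipopolysaccharide (LPS, 10 ng/ml). LPS is a component of the outer membrane of Gram-negative bacteria. The sample titles give these numbers without saying what they stand for. In each of the 4 conditions, sequencing was done on the material that anti-CPEB4 pulled down from formaldehyde-crosslinked cells (RIP) and on the total RNA before it (Input), and the labels give rRNA depletion for the Input samples. The 16 samples are 8 libraries, each run on lanes 7 and 8, and the deposited tables hold 1 column of read counts per library. There is therefore 1 library per group and no replicate check of any difference below, and whatever the numbers stand for cannot be told apart from genotype.

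Levels are given as CPM, the number of reads scaled to a sum of 1000000 over 3′-UTRs with a gene symbol. Comparisons are log2 ratios of CPM after 1 read was added to each library, each with a 95% interval in parentheses that covers counting error only. A ratio was used when its 2 libraries together had 20 or more reads for the gene, and a difference of 2-fold or more, a log2 ratio past 1 or −1, was called. The sums of reads were 929054 and 1325968 in untreated WT and KO Input, 1897360 and 1502378 in the LPS Inputs, 1665914 and 467696 in untreated WT and KO RIP, and 2492300 and 871482 in the LPS RIPs. The KO RIPs, from cells labelled as lacking the antigen, were the shallowest, with a median of 13 and 20 reads per member against 52 and 56 in the WT RIPs. Cpeb4 itself had 130 and 136 CPM in the untreated and LPS WT Inputs and 52 and 52.6 CPM in the KO Inputs, so its 3′-UTR was lower but still present in the KO. In the RIPs it had 836 and 257 CPM in untreated WT and KO and 770.4 and 367 CPM with LPS, log2 ratios over Input of 2.67 and 2.50 in untreated and LPS WT and 2.29 and 2.79 in KO, so it was above its Input to a like extent in both genotypes. The 8 macrophage markers fixed for the check summed to 2539 to 3557 Input CPM, the LPS response markers were at 4.52 to 6.46 CPM untreated and 1753 to 1859 CPM with LPS, and the marker lists of other blood cells and fibroblasts summed to at most 1.05 CPM except the T cell list, which held 8.61 to 17.3 CPM from Cd247 with Cd3e at 0. In such bulk samples, fewer cells of a type and less RNA per cell cannot be told apart.

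The members held 1.38% to 1.53% of Input reads, and the 10 members with the most reads held 42.6% of these. Per kilobase of 3′-UTR and averaged over the 4 Inputs, the members ranged from 1.54 to 453 CPM with a median of 25.9. Slc6a6, the taurine carrier, was highest, with 2363 and 2191 CPM in untreated WT and KO Input and 1199.6 and 1512 CPM with LPS before division by length. Slc15a3, a lysosomal peptide and histidine carrier, came next per kilobase, with a region of 131 bases, and an exon of Tmem132a on the opposite strand covers 71.8% of it. The kit does not mark strand, so the reads of the pair cannot be told apart. The zinc importer Slc39a1, the haem carrier Slc48a1 and the glucose carrier Slc2a1 followed. At the low end were Slc12a2, a sodium, potassium and chloride cotransporter, the glucose carrier Slc2a12 and Slc35g1.

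The first question was how the carrier mRNAs changed with LPS in the lysate. In WT Input, 22 of 129 members with enough reads were 2-fold or more higher with LPS and 29 were lower, where over all genes 15% were higher and 15.2% lower. In KO Input 21 of 127 were higher and 35 lower, against 13.7% and 19.6% of all genes. Under TMM, which raised the KO ratio of every gene by 0.22 and the WT ratio by 0.16, the KO split was 26 higher and 27 lower. The shares of all genes under TMM are not given. Both genotypes agreed on 16 members that were higher and 24 that were lower, of 124 with enough reads in both, where 10.5% and 11.6% of all genes were called so. No member was called in opposite directions (0.0603% of all genes), and 109 had the same sign in both, against 80.8% of all genes. Across the 124 members the values of the genotypes, which share no library, had a Spearman correlation of 0.92 (0.82 over 6639 genes), given as a description since genes are not independent replicates. The members' medians were −0.17 in WT and −0.29 in KO, beside −0.06 and −0.16 over all genes.

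**Figure D1:**
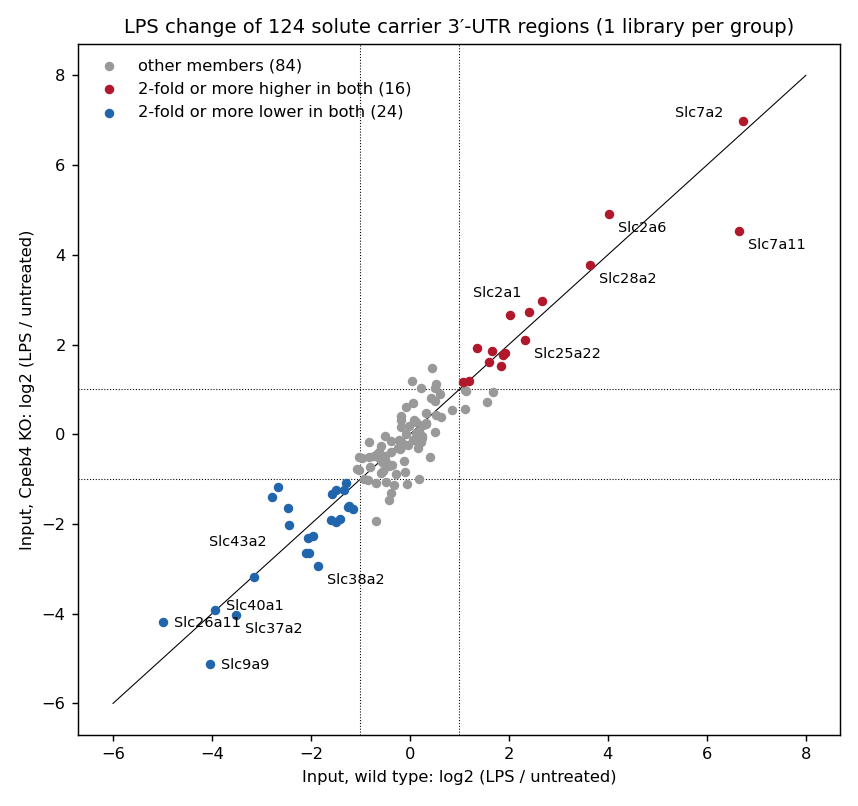
Each point is 1 of 124 solute carrier genes, with its log2 ratio of LPS over untreated Input in WT on the x axis and in Cpeb4 KO on the y axis. The diagonal marks equal values and the dotted lines mark 2-fold, and the 16 members higher and 24 lower in both genotypes lie along the diagonal, with Slc7a2 and Slc7a11 farthest to the right.

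Amino acid carriers held the highest changes. Slc7a2, a cationic amino acid carrier that brings arginine into macrophages, had 8.61 and 6.03 CPM in untreated WT and KO Input (8 reads each) and 1030.4 and 861 CPM with LPS. Its log2 ratio was 6.73 (5.79 to 7.68) in WT and 6.99 (6.04 to 7.93) in KO, the highest value among the members in either genotype, although in WT the interval overlaps that of Slc7a11. Slc7a11, the cystine and glutamate exchanger, had 3.23 and 8.3 CPM untreated (3 and 11 reads) and 432 and 208 CPM with LPS. Its ratios were 6.65 (5.23 to 8.07) and 4.53 (3.70 to 5.36), and the LPS level was higher in WT than in KO by 1.05 (0.86 to 1.24). Slc7a8, a neutral amino acid exchanger, was also higher in both, at 1.91 and 1.82, from levels of 158 and 153 CPM.

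The 3′-UTRs of Slc7a2 and Slc7a11 are long and hold consensus CPEs, TTTTAT or TTTTAAT. There were 5 in the 5774 bases of Slc7a2 and 17 in the 7366 bases of Slc7a11. This is not shared by all members with a large LPS increase. Of the 16 members higher in both genotypes, 7 had no predicted CPE in the authors' Prediction, described below, Slc2a6 and Slc15a3 among them. Another 5 had repression only, 2 early strong activation and 2 other activation. The Slc7a11 region did not lie inside an exon of its own transcript, so some of its bases and CPEs may be outside the mature 3′-UTR. The last CPE lay 2232 bases from the region end in Slc7a2 and 980 in Slc7a11. The 30 bases around the consensus CPE nearest the end of each region are given 5′ to 3′ on the strand of the gene, from mm10 (GRCm38.p6), with the CPE in capitals:
Slc7a2, chr8:40920059-40920088, + strand: tctagttttaatTTTTATcaagtatttcta
Slc7a11, chr3:50365904-50365933, − strand: tgagtttgtaagTTTTATctaaatatttag

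The same group held 6 members that were lower in both genotypes, Slc1a5, Slc38a2, Slc38a9, Slc43a2, Slc6a8 and Slc7a5, so that 3 of its 20 members with enough reads in both were higher and 6 lower. Slc43a2, a carrier of large neutral amino acids, went from 1559.7 and 1104 CPM in untreated WT and KO to 285 and 272 CPM with LPS, log2 ratios of −2.45 (−2.59 to −2.31) and −2.02 (−2.18 to −1.86). Slc7a5, the light chain of the large neutral amino acid exchanger, went from 53.8 and 42.2 to 12.6 and 7.99 CPM. Its heavy chain partner Slc3a2 did not pass 2-fold, with ratios of 0.32 (−0.13 to 0.77) and 0.23 (−0.19 to 0.65). Slc38a2, a sodium-coupled neutral amino acid carrier, had ratios of −1.85 and −2.94, with 35.3 CPM left in WT and 15.3 CPM in KO. Slc7a1, the cationic amino acid carrier that most cells use, had −0.42 in WT and −1.46 in KO, opposite in sign to Slc7a2. Slc7a7, the light chain of a cationic amino acid exporter, was called higher in WT, at 1.55 (0.03 to 3.08), but an exon of Oxa1l on the other strand covers 67.2% of its region.

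Among the hexose carriers, 2 of 4 members with enough reads in both genotypes were higher with LPS in both and 2 were lower. Slc2a1, the widely expressed glucose carrier GLUT1, had 63.5 and 68.6 CPM untreated and 407 and 546 CPM with LPS, ratios of 2.66 (2.28 to 3.04) and 2.98 (2.67 to 3.29). Slc2a6, a lysosomal member of the same family, went from 14 and 7.54 CPM to 245 and 248 CPM. The ratios were 4.02 (3.26 to 4.79) and 4.90 (4.04 to 5.77). Slc2a8, an intracellular hexose carrier, and Slc2a9, a urate carrier, were the pair that was lower, with WT ratios of −2.03 and −1.15.

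The monocarboxylate class, taken as the Slc16 family, includes the carriers of lactate and pyruvate, though not every member is one. It had no member lower and 3 of 4 higher in both genotypes. Slc16a3, the lactate exporter MCT4, had 121 and 73.9 CPM untreated and 492 and 473 CPM with LPS, ratios of 2.02 (1.74 to 2.30) and 2.67 (2.36 to 2.97). Slc16a1, MCT1, went from lower levels, 12.9 and 18.1 CPM, to 51.1 and 63.9 CPM. The third, Slc16a6, had 1.07 and 1.16, and an exon of Amz2 on the opposite strand covers 46% of its region. Bsg, the chaperone that carries MCT1 and MCT4 to the membrane, was not called, with 179 and 134 CPM untreated and 203 and 213 CPM with LPS. The glycolysis list also holds Hif1a, which is not a glycolytic enzyme. Of its 14 and 16 genes with enough reads, 5 in WT and 10 in KO were 2-fold or more higher and none was lower. Hif1a was among those higher in both, at 2.85 and 2.55. Over all genes 15% in WT and 13.7% in KO were higher, and 15.2% and 19.6% lower.

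Metal carriers moved both ways. Slc31a1, the copper importer CTR1, had 213 and 201 CPM untreated and 674 and 729.5 CPM with LPS, and its relative Slc31a2 went from 169 and 121 to 436 and 461 CPM. Slc39a14, a zinc and iron importer, had ratios of 1.84 (1.39 to 2.29) and 1.51 (1.12 to 1.90), the only called increase in both genotypes among 13 zinc carriers. Slc39a10 and Slc39a11 of that group were lower in both. Slc40a1, ferroportin, the iron exporter, went from 47.4 and 29.4 CPM to 2.64 and 1.33 CPM (5 and 2 reads), ratios of −3.94 (−5.17 to −2.71) and −3.92 (−5.61 to −2.22). Slc11a1, the NRAMP1 divalent metal carrier of the phagosome, stayed within 2-fold in both, with 95.8, 79.9, 85.4 and 89.2 CPM in untreated WT and KO and LPS WT and KO.

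Mitochondrial carriers, the group with the most members, had 3 of 26 higher and 2 of 26 lower in both genotypes. The 3 were Slc25a22, a glutamate carrier, at 2.33 and 2.10, the iron importer mitoferrin-1, Slc25a37, at 1.61 and 1.60, and the dicarboxylate carrier Slc25a10 at 1.20 and 1.18. The lower pair was Slc25a23 and Slc25a30. None of 16 Slc35 members, the family that includes the nucleotide sugar carriers, was higher in both, and Slc35c2 and Slc35e4 were lower in both.

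Of the remaining members, Slc28a2, a concentrative nucleoside carrier, went from 3.23 and 6.03 CPM (3 and 8 reads) to 53.2 and 91.9 CPM, ratios of 3.64 (2.2 to 5.08) and 3.77 (2.80 to 4.74). Slc26a11, an anion exchanger, had 30 and 31 reads untreated and 1 read with LPS in each genotype, ratios of −4.98 (−7.05 to −2.92) and −4.18 (−6.24 to −2.12). Slc9a9, an endosomal sodium and proton exchanger, went from 85 and 91.3 CPM to 4.74 and 2 CPM. These decreases, with those of Slc40a1, Slc37a2 and Slc45a4, were 8-fold or more in both genotypes. Slc37a2, a sugar phosphate carrier of the endoplasmic reticulum, was the most abundant of them, at 413 and 348 CPM untreated and 35.8 and 20.6 CPM with LPS. Slc15a4, the endolysosomal peptide and histidine carrier, was lower, at −1.40 and −1.89, while the reads over its relative Slc15a3 were higher, at 2.40 and 2.71, with the overlap given above.

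Members of other groups were also lower in both genotypes. Slc45a4 went from 111 and 103 CPM to 12.1 and 10.6 CPM. Slc5a3, the myo-inositol carrier, with the longest region of all members, went from 73.2 and 74.7 CPM to 16.9 and 11.3 CPM. Slc6a8, the creatine carrier, had 163 and 135 CPM untreated and 57.4 and 56.6 CPM with LPS. In each of these genes the LPS levels of the genotypes were within 2-fold of each other. Slc17a5, the lysosomal sialic acid exporter, had ratios of −1.60 (−2.24 to −0.96) and −1.92 (−2.62 to −1.21), and the fatty acid carrier Slc27a1 −1.23 (−1.51 to −0.95) and −1.59 (−1.88 to −1.30). Slc1a5, the glutamine carrier ASCT2, had few reads, with 16 and 20 untreated and 4 and 8 with LPS, and ratios of −2.80 (−4.23 to −1.36) and −1.40 (−2.53 to −0.28).

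**Figure D2:**
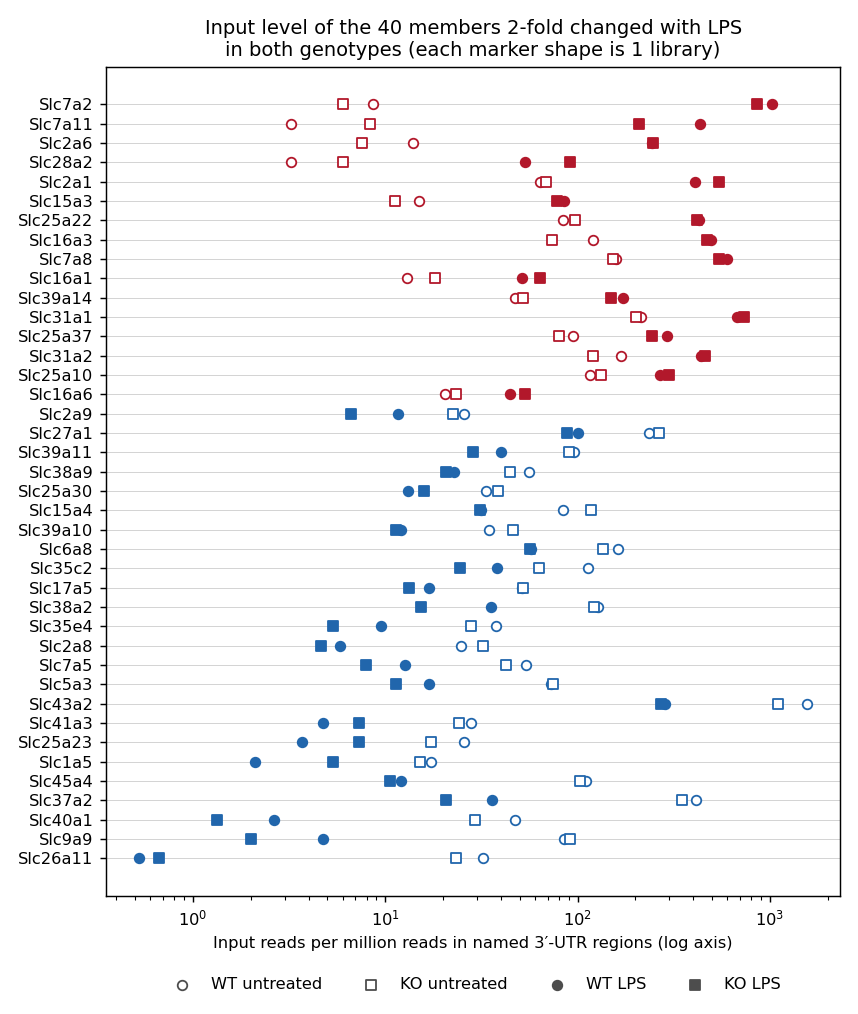
Input level in CPM on a log axis of the 40 members that changed 2-fold or more with LPS in both genotypes, ordered by their WT ratio. Open symbols are untreated and filled symbols LPS-treated libraries, circles WT and squares KO, and the untreated pair of each gene lies on one side of the LPS pair.

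**Figure D3:**
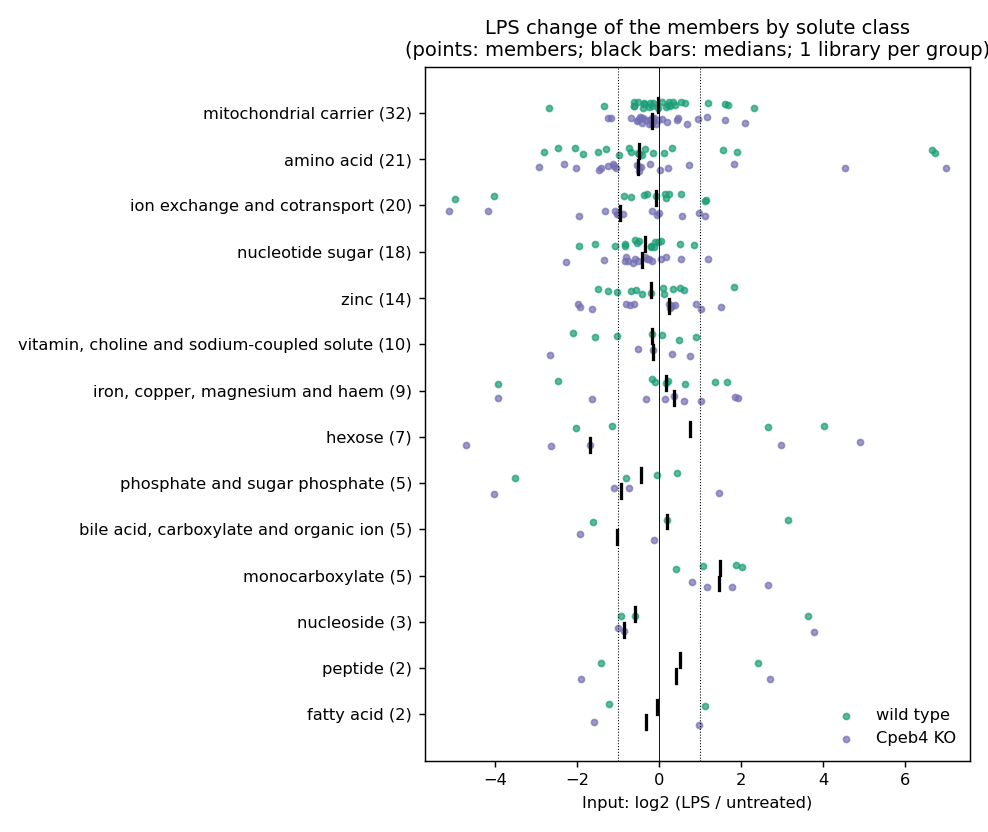
Log2 ratio of LPS over untreated Input for each member by the solute class assigned to its family, with the number of members in parentheses, WT in green and KO in purple. Black bars are medians and dotted lines 2-fold. The monocarboxylate class is the Slc16 family. Of the classes with 4 or more members, it has both medians above 2-fold, at 1.48 in WT and 1.47 in KO.

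Most of these calls were also made in the immunoprecipitates, which are other libraries of the same cells. In the RIPs 19 of 138 members were higher with LPS in WT and 29 lower (12.3% and 18.7% of all genes), and in KO 19 of 105 were higher and 24 lower (14.8% and 19.5%). The split was 26 higher and 17 lower in WT under library totals and 25 and 21 in KO under TMM, without the shares of all genes under these scalings. Of 105 members with enough reads in both, 15 were higher in both and 18 lower (10.6% and 12.5% of all genes), none was called in opposite directions (0%), and 89 had the same sign (82.9%). Of the 16 members higher in both Inputs, 15 were also called higher in the WT RIP and 15 in the KO RIP, the exceptions being Slc25a10 in WT, at 0.23 (−0.22 to 0.68), and Slc16a6 in KO, at 0.24 (−0.44 to 0.92). Of the 24 that were lower, 22 had enough reads in the WT RIPs and 19 of these were called lower, and 16 of 16 were called lower in the KO RIPs. How often all genes called in both Inputs were also called in the RIPs was not counted.

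Next, the genotypes were compared in the Input. Few members differed: untreated, 2 of 126 were higher in WT and 1 was lower (1.27% and 2.74% of all genes), and with LPS 5 of 123 were higher and none lower (2% and 1.6% of all genes). The untreated calls were Slc41a1, a magnesium carrier, and Slc50a1, a sugar carrier, at 1.04 (0.12 to 1.96) and 1.04 (−0.18 to 2.27), and the glucose carrier Slc2a3 at −1.69 (−2.68 to −0.70), with 9 reads in WT and 45 in KO. The LPS calls were Slc7a11, given above, Slc7a1 at 1.15 (0.71 to 1.58), Slc38a2 at 1.17 (0.49 to 1.84), the phosphate carrier Slc20a1 at 1.25 (0.50 to 2.0) and the dicarboxylate carrier Slc13a3 at 3.26 (2.28 to 4.24), with 108 reads in WT and 8 in KO. Of the 5, 3 are amino acid carriers, a class that held 19 of the 123 members with enough reads. No member of 113 was called in both treatments (0.0667% of all genes higher in both, 0.117% lower in both and 0.05% opposite), and 72 kept their sign between them, against 53.5% of all genes.

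The LPS changes of WT and KO were within 1 log2 unit of each other for 113 of 124 members. The widest gap was that of Slc7a11, whose intervals met. The counting intervals did not meet for 10, among them Slc7a1, Slc38a1 and Slc38a2, whose KO values were the lower, Slc43a2, lower in WT, and Slc16a3, Slc16a10, Slc31a2, Slc48a1 and Slc6a6, whose KO values were the higher. Neither the gaps nor the intervals that did not meet were counted over all genes, so these counts cannot be set against a background. The intervals do not include the spread between cultures, and the differences were not tested. Slc7a1 had 105 and 140 untreated reads in WT and KO and 161 and 57 with LPS. Slc6a6 was lower with LPS in both, at −0.98 (−1.06 to −0.89) and −0.53 (−0.61 to −0.46), and Slc48a1 had −0.09 (−0.23 to 0.05) and 0.60 (0.47 to 0.73), all within 2-fold.

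The RIP was then set against the Input of the same cells. In untreated WT, 20 of 134 members were 2-fold or more higher in the RIP and 38 lower (23.4% and 21.8% of all genes), and with LPS 24 of 135 were higher and 44 lower (21.1% and 27.5%). The members' medians were −0.31 in both, against −0.01 and −0.07 over all genes. In the KO, labelled as lacking the antigen, 10 of 117 members were higher and 24 lower untreated (14.5% and 12.5%) and 5 of 112 were higher and 18 lower with LPS (14% and 12.3%), with medians of −0.38 and −0.37. The share of carriers above their Input was lower than that of all genes in each of the 4 conditions, KO included. Scaled to library totals, every ratio moved by 0.51 in LPS-treated WT and by −0.77 and −0.68 in untreated and LPS KO, and the splits became 39 higher and 30 lower in LPS-treated WT, 2 and 68 in untreated KO and 1 and 58 in LPS KO. With TMM the LPS KO split was 9 and 16. Shares of all genes under these other scalings are not given, so the changed splits are not a result about carriers.

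Of 125 members, 17 were higher in the WT RIP than in the Input in both treatments and 31 lower (18.3% and 19.1% of all genes), with the same sign for 111 (90.1%) and no opposite calls (0.0155%). Among the 17 were Slc44a1, a choline carrier, Slc25a24, a calcium-regulated mitochondrial ATP-Mg and phosphate carrier, the thiamine carrier Slc19a2, ferroportin and MCT1. Slc44a1 had 109.8 CPM in untreated WT Input and 549 CPM in the RIP, and 156 and 773 CPM with LPS. In the KO the same gene had 131 and 265 CPM untreated and 220.3 and 442 CPM with LPS, so that it was above its Input there too. In both KO pairs 4 of 102 members, Slc44a1, Slc25a4, Slc35a5 and Slc38a6, were higher and 9 lower (9.39% and 6.51% of all genes), none was called in opposite directions (0.0357%) and 87 had the same sign (82.7%). Slc25a4, the ADP and ATP carrier ANT1, can share reads with near-identical copies. Among the 31 that were lower were Slc48a1, Slc43a2, Slc16a3, Slc2a6, Slc3a2, Slc11a1 and Slc37a2. Slc48a1 had 691 CPM in untreated WT Input and 129.7 CPM in the RIP, and its KO pair, 541 and 119.7 CPM, was −2.15 (−2.54 to −1.76) apart on the log2 scale against −2.41 (−2.63 to −2.19) in WT.

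The WT RIP was next compared with the KO RIP, made with the same antibody from cells labelled as lacking its antigen. Untreated, 18 of 127 members were higher in the WT RIP and 9 lower (9.46% and 11% of all genes), and with LPS 21 of 123 were higher and 17 lower (9.7% and 14.1%). Of 117 members with enough reads in both treatments, 10 were higher in both and 3 lower (4.14% and 6.19% of all genes), and none was called in opposite directions (0.0505%). The sign was the same for 88, against 77.6% of all genes. The 10 were Slc19a2, Slc20a1, Slc25a15, Slc25a24, Slc25a32, Slc2a12, Slc35a1, Slc35c1, Slc40a1 and Slc7a8, and the 3 were Slc11a1, Slc25a5 and Slc37a2. Slc25a32, a mitochondrial folate and FAD carrier, had 35.4 CPM in the untreated WT RIP and 4.28 CPM in the KO RIP (59 and 2 reads), and 40.9 and 10.3 CPM with LPS. Slc25a15, the mitochondrial ornithine carrier, had 40.2 and 15 CPM untreated and 32.1 and 12.6 CPM with LPS. The phosphate carrier Slc20a2 had 21 reads in the LPS WT RIP and none in the KO RIP, at least 2.45-fold higher in WT when 3 reads are set as the floor of the KO library.

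Of the members higher in the WT RIP in both treatments, Slc7a8 had the most reads, with 152 CPM in WT and 57.7 CPM in KO untreated and 499 and 241 CPM with LPS. Its ratios were 1.35 (0.79 to 1.92) and 1.04 (0.83 to 1.26), yet its WT RIP lay near its Input, at −0.06 and −0.26, and its KO RIP below, at −1.36 and −1.16. Slc40a1 had 173 and 70.6 CPM untreated and 14 and 4.59 CPM with LPS, and its untreated KO RIP was above the Input too, at 1.27 (0.61 to 1.93). Slc20a1 had ratios of 1.70 (0.77 to 2.64) and 1.60 (0.90 to 2.30), of which 0.35 (−0.68 to 1.38) was left with LPS once its Input difference was subtracted. Slc35a1, the CMP-sialic acid carrier of the Golgi, had 3 and 5 reads in the KO RIPs and 37 and 49 in the WT RIPs, and the untreated interval of its ratio, −0.07 to 2.90, includes 0.

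When the Input ratio of the genotypes was subtracted, the input-corrected ratio was 2-fold or more higher in WT for 15 of 115 members and lower for 11 untreated (14.5% and 14.2% of all genes). With LPS it was higher for 11 and lower for 18 of 113 (11.3% and 17.8%). In both treatments 6 of 103 members were higher and 6 lower, where 6.1% and 8.32% of all genes were, so the carriers' shares lay near those of all genes. None was called in opposite directions (0.207% of all genes), and 81 had the same sign, against 78.3%. The values of the treatments, which share no library, had a Spearman correlation of 0.74 across the 103 members (0.72 across 5314 genes).

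The members higher in both were Slc16a1, Slc19a2, Slc25a24, Slc2a1, Slc35c1 and Slc44a1, and those lower in both Slc11a1, Slc25a5, Slc37a2, Slc38a6, Slc39a13 and Slc44a2. Their 3′-UTRs were read from mm10 (GRCm38.p6) to show what the called genes carry. A stretch of 30 bases is given on the strand of the gene, 5′ to 3′, around the consensus CPE, TTTTAT or TTTTAAT, that lies nearest the end of the region, with the CPE in capitals. Where the region holds none, the poly(A) signal nearest the end, AATAAA or ATTAAA, is in capitals instead. All of the 6 higher members except Slc35c1 hold a consensus CPE:
Slc16a1, chr3:104657375-104657404, + strand: acatatggttcaTTTTATgttgattttcct
Slc19a2, chr1:164265330-164265359, + strand: ctataaaactatTTTTATtaaataaatatt
Slc25a24, chr3:109167869-109167898, + strand: aaaaaagatagTTTTAATgttttaagattt
Slc2a1, chr4:119136700-119136729, + strand: gttattttttttTTTTATcagccactctcc
Slc35c1, chr2:92452775-92452804, − strand: tgtatgtgatttAATAAAaaaaaaattttt
Slc44a1, chr4:53567743-53567772, + strand: gattgtgtgccaTTTTATataacaggtcct

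Of the 6 lower members only Slc25a5 and Slc38a6 hold a consensus CPE, and the poly(A) signal is shown for the other 4:
Slc11a1, chr1:74386031-74386060, + strand: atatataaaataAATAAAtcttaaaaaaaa
Slc25a5, chrX:36798738-36798767, + strand: ctcaattatattTTTTATttcagtcactcc
Slc37a2, chr9:37229151-37229180, − strand: atagcacgtgtaATTAAAaggcaataactc
Slc38a6, chr12:73352665-73352694, + strand: gaatttagccaTTTTAATtttaaccaaaat
Slc39a13, chr2:91061793-91061822, − strand: tctgtagatataAATAAAttacttagaccg
Slc44a2, chr9:21354993-21355022, + strand: ttccggccagttAATAAAgtgcctcttgta

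Only the strand of the gene was searched. A consensus CPE was found in 98 of the 155 members' regions, 63.2%, and in 63.9% of the 8200 regions of all genes, so the motif by itself is common. TTTTAT was held by 59.4% of members and 58.5% of all regions, TTTTAAT by 29% and 32.8%, and AATAAA or ATTAAA by 90.3% and 91.2%. The 6 higher regions had 0 to 6 consensus elements each and a median GC content of 39.8%, and the 6 lower regions 0 to 2 elements and a median of 48.4%. The GC ranges overlapped, from 36.2% to 52% and from 33.8% to 55.7%. In the authors' Prediction, described below, 3 of the 6 higher members and 1 of the 6 lower had a predicted CPE. The CPE shown lay 1070 bases from the region end in Slc16a1, 613 in Slc2a1, 571 in Slc25a24, 58 in Slc44a1 and 38 in Slc19a2. In the lower members it lay 1367 bases from the end in Slc38a6 and 52 in Slc25a5.

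Slc25a24 had 298 and 118 CPM in the untreated WT and KO RIP, from Input levels of 66.7 and 78.4, and 203 and 78 CPM with LPS, from 43.7 and 59.9. This gave input-corrected log2 values of 1.54 (0.94 to 2.15) untreated and 1.81 (1.25 to 2.37) with LPS. Slc44a1, with the most reads of the 6, had 1.29 (0.85 to 1.73) and 1.30 (1.03 to 1.58).

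The values given for the other members are also input-corrected, so they differ from the ratio of the RIP levels beside them. For Slc2a1 the RIP levels were 98.4 CPM in untreated WT against 36.3 in KO and 488 against 302 with LPS, and the input-corrected ratios 1.47 (0.62 to 2.31) and 1.11 (0.87 to 1.35). The LPS RIP ratio itself was 0.69 (0.50 to 0.88), below the call. Slc16a1 had 42.6 and 6.41 CPM untreated, the latter from 3 reads, and 112 and 58.5 CPM with LPS, RIP ratios of 2.34 and 0.91 and input-corrected ratios of 2.77 (1.02 to 4.51) and 1.23 (0.65 to 1.82). Both genes were also among those higher with LPS in both Inputs. Slc19a2 had 1.23 (−0.31 to 2.77) and 2.78 (0.90 to 4.66), with 7 and 3 reads in the KO RIPs, and the untreated interval includes 0. Slc35c1, the GDP-fucose carrier of the Golgi, had 1.66 (0.45 to 2.86) and 1.61 (0.71 to 2.51), yet its WT RIP was below its Input, at −0.62 and −1.31, and its KO RIP farther below, at −2.27 and −2.92.

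Of the 6 members that were lower in both, all but Slc25a5 and Slc38a6 without a consensus CPE, Slc11a1 had 22.2 and 51.3 CPM in the untreated WT and KO RIP and 14.8 and 41.3 CPM with LPS, RIP ratios of −1.23 and −1.48 and input-corrected ratios of −1.49 (−2.33 to −0.66) and −1.41 (−2.14 to −0.68). By input-corrected ratio, Slc37a2 had −1.27 (−1.61 to −0.92) and −2.22 (−3.26 to −1.19). Slc44a2, a relative of Slc44a1 in the choline carrier family, had −1.14 (−1.89 to −0.40) and −1.22 (−1.83 to −0.62), opposite in sign to Slc44a1. Slc39a13, a zinc carrier of the secretory pathway, had −1.28 (−2.62 to 0.05) and −1.25 (−2.11 to −0.39), and Slc38a6 had −1.48 (−2.66 to −0.30) and −1.48 (−2.44 to −0.51). Slc25a5, the ADP and ATP carrier ANT2, had −1.67 (−2.78 to −0.56) and −2.59 (−3.80 to −1.38), with 11 to 22 reads in each RIP, and processed pseudogenes of this gene can share its reads.

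**Figure D4:**
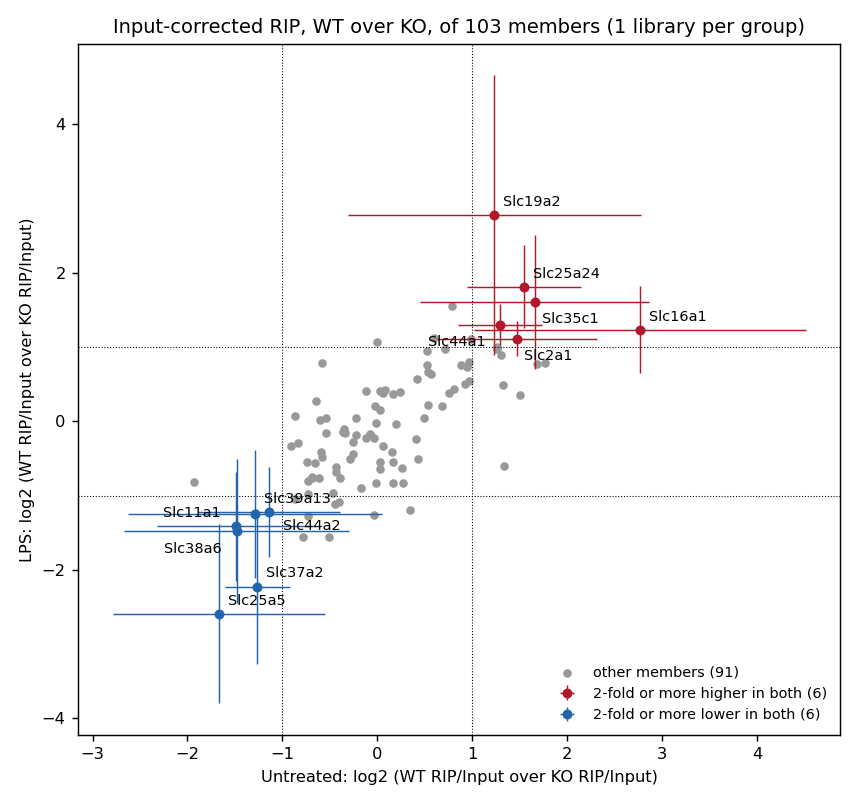
Input-corrected log2 ratio of the WT over the KO RIP for 103 members, untreated on the x axis and with LPS on the y axis. Bars are 95% counting intervals, shown for the 6 members higher (red) and the 6 lower (blue) by 2-fold or more in both treatments, and dotted lines mark 2-fold.

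The scaling bears on these signs. Reads in named 3′-UTRs made up 46.4% to 51.1% of the library total in the Inputs, 48.9% and 70.1% in the untreated and LPS WT RIPs, but 27.3% and 31.8% in the KO RIPs. Scaled to library totals, which the authors' RPKM values hold, every input-corrected ratio was higher by 0.83 untreated and by 1.20 with LPS, and the split of called members went from 15 higher and 11 lower to 43 and 2 untreated and from 11 and 18 to 61 and 2 with LPS. For the RIP of WT over KO it went from 18 and 9 to 59 and none untreated and from 21 and 17 to 80 and 2 with LPS. The scaling moves every gene alike. Shares of all genes under the other scalings are not given, so these splits are not a result about carriers. All 6 higher members stayed past 2-fold in both treatments under library totals. Of the 6 lower members all kept a value below 0 under library totals, but none stayed past 2-fold in both, with a range of −1.39 to −0.02. Under TMM and under median-of-ratios all 12 members stayed past 2-fold in both treatments, and the split of the input-corrected LPS ratio was 15 higher and 16 lower and 16 and 15.

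Slc7a2 and Slc7a11, whose CPEs are shown above, were below the call. In the RIPs Slc7a2 had 1494 CPM in LPS-treated WT and 942 CPM in KO, an input-corrected ratio of 0.41 (0.26 to 0.55). Slc7a11 had 794 and 215 CPM, and after its Input difference was subtracted 0.83 (0.55 to 1.12). Untreated reads were too few in both for a value.

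The authors' tables give each region a Prediction of CPE function from the arrangement of its motifs. Of the 155 members, 96 had no predicted CPE, 26 repression only, 17 early strong activation and 16 another form of activation. These are 61.9%, 16.8%, 11% and 10.3%, beside 63.3%, 19.7%, 7.91% and 9.15% of the 8200 genes. Members with a repression prediction were long, with a median of 3774.5 bases against 1208.5 for those with no prediction. They had a median of 8 CPEs, consensus and nonconsensus forms counted together, and 5 ATTTA motifs, against 1 of each.

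By Prediction, the members' median LPS change of the Input was −0.12 in WT and −0.31 in KO with no predicted CPE and −0.32 and −0.27 with any. Within the latter it was −0.0018 and −0.31 with repression, −0.57 and −0.55 with early strong activation and −0.37 and −0.21 with other activation, from 14 to 25 members each. Of the 71 members with no predicted CPE and enough reads in both genotypes 7 were higher and 15 lower in both, of 24 with repression 5 and 3, of 15 with early strong activation 2 and 4, and of 14 with other activation 2 each. The 5 with repression were Slc25a37, Slc2a1, Slc31a1, Slc7a11 and Slc7a2. Calls in both genotypes were not counted over all genes of a class. In WT alone, 12 of 75 members with no predicted CPE were higher and 17 lower, against 656 and 643 of 4275 genes. With repression the counts were 6 and 4 of 24 members, against 192 and 212 of 1407 genes. With early strong activation they were 2 and 5 of 16 against 72 and 100 of 548. With other activation they were 2 and 3 of 14 against 110 and 93 of 643.

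The RIP was compared by Prediction in the same way. In WT the median of RIP over Input was −0.62 untreated and −0.82 with LPS for members with no predicted CPE and 0.10 and 0.18 for members with one, and in KO −0.55 and −0.60 against −0.26 and −0.11. The gap between the classes in WT was 0.72 and 1.0 for members and 1.08 and 1.19 for all genes. After input correction the medians of WT over KO were −0.26 and −0.33 with no predicted CPE, close to −0.28 and −0.36 over all such genes. With any predicted CPE they were 0.03 and 0.21 for members and 0.38 and 0.30 for all genes. The gap was thus 0.29 untreated and 0.54 with LPS in members, where it was 0.66 and 0.65 in all genes, and it does not depend on the scaling, which shifts every gene alike.

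**Figure D5:**
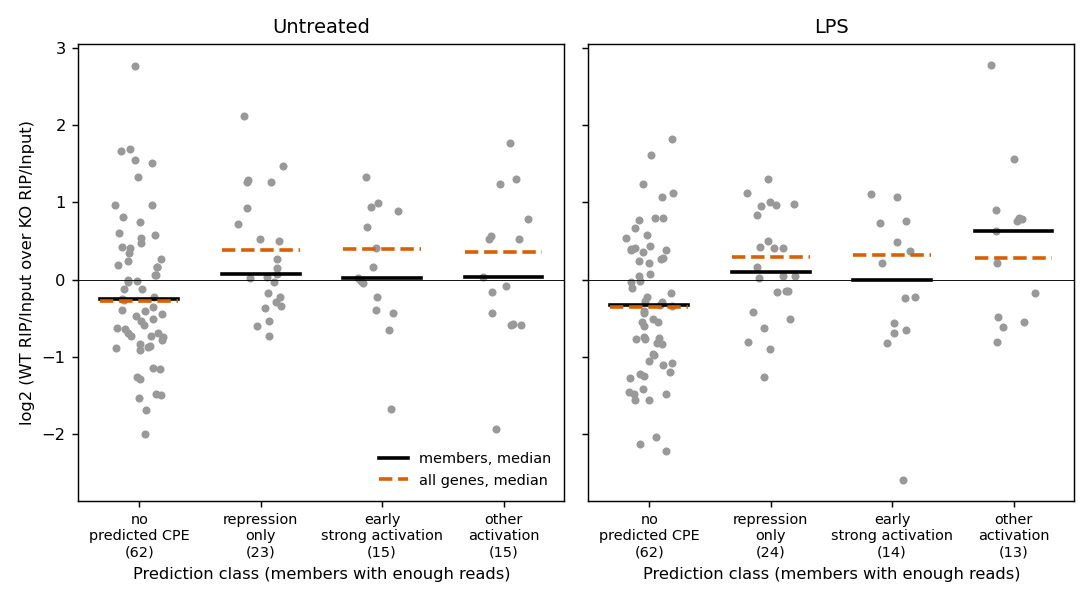
Input-corrected log2 ratio of the WT over the KO RIP by Prediction class, untreated (left) and with LPS (right), with 1 grey point per member and their number in parentheses. Black lines are the members' medians and orange dashed lines the medians of all genes of the class; the lines nearly coincide with no predicted CPE, and in the repression and early strong activation classes the members' median is the lower in both treatments.

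Among the carriers with a predicted CPE, 9 of 53 were higher and 2 lower untreated, and 6 and 2 of 51 with LPS, which is 17% and 3.77% untreated and 11.8% and 3.92% with LPS, beside 21% and 4.21% and 16.7% and 5.24% of all genes with a predicted CPE. With no predicted CPE, 6 of 62 were higher and 9 lower untreated, and 5 and 16 of 62 with LPS, which is 9.68% and 14.5% and 8.06% and 25.8%, beside 9.72% and 21.4% and 7.53% and 26.5% of all genes without one. The classes also differ in length and base composition. When the members were split by length into 3 groups, those of up to 967 bases had medians of −0.67 and −0.54 with no predicted CPE and −0.12 and −0.13 with one. Those of 979 to 2130 bases had 0.06 and −0.53 against 1.26 and 0.84, the latter from 9 and 6 members. Those of 2229 bases or more had −0.12 and 0.05 against 0.03 and 0.05, so the classes lay closest in the longest regions. Across members the input-corrected ratio followed the T content of the region, with Spearman correlations of 0.45 untreated (115 members) and 0.51 with LPS (113), and the number of consensus CPEs, at 0.42 and 0.43. Over all genes the values were 0.41 and 0.46 for T content and 0.41 and 0.41 for CPEs, and the points share the 4 libraries of a treatment and are not independent. The part of length and composition in the difference between classes was not tested.

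Other transporters were set beside the carriers. Of 17 ABC transporters, 3 were higher and 4 lower with LPS in WT Input and 2 and 7 in KO, and of 18 P-type ATPases with enough reads 3 and 6 in WT and 2 and 7 in KO. Over all genes 15% were higher and 15.2% lower in WT and 13.7% and 19.6% in KO. After input correction 6 of 17 P-type ATPases were higher and 2 lower in each treatment, and 2 and 3 of 12 ABC transporters untreated and 1 and 2 of 12 with LPS. All genes gave 14.5% and 14.2% untreated and 11.3% and 17.8% with LPS. For RIP over Input in WT, 3 of 16 ABC transporters were higher and 8 lower untreated, and 3 and 6 of 15 with LPS. P-type ATPases gave 7 and 4 of 18, and 8 and 5 of 19, beside 23.4% and 21.8%, and 21.1% and 27.5% of all genes. In KO, ABC transporters gave 3 and 2 of 16, and 2 and 4 of 14. There P-type ATPases gave 1 and 3 of 18, and 0 and 4 of 16, beside 14.5% and 12.5%, and 14% and 12.3% of all genes. Only 1 aquaporin passed the minimum, with too few reads for an LPS change, and both organic anion carriers of the Slco family were called with LPS in both genotypes, 1 higher and 1 lower.

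Genes whose products work with members were listed with them. Of the arginine users, Nos2, which makes nitric oxide from arginine, had no Input reads untreated in either genotype and 315 and 359 CPM with LPS, and Ass1, which remakes arginine from citrulline, went from 4.31 and 6.03 to 59.6 and 108 CPM. Of 8 iron genes 2 were higher and 3 lower with LPS in each genotype. Hmox1, which frees iron from haem, went from 327 and 241 to 726 and 869 CPM, and the transferrin receptor Tfrc from 117 and 136 to 39 and 28 CPM. Of the glutathione genes 1 of 5 was higher and 1 lower in WT and 2 of 4 higher in KO. Of the amino acid sensing genes none was higher, and 1 of 6 was lower in WT and 2 of 7 in KO. Beside these short lists, 15% of all genes were higher and 15.2% lower in WT, and 13.7% and 19.6% in KO.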

How the data were processed

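Libraries from CPEB4 RIP and Input were sequenced on 2 lanes and summed by the authors. Per the labels and the study's methods, reads were aligned to mm10 with Bowtie2 (version 2.2.2 in the submitters' processing notes) in local mode, duplicates were removed, and the authors deposited read counts per Ensembl 3′-UTR region of a non-stranded library, with RPKM values, region widths (bases), CPE counts and a Prediction. The submitters' notes also name MACS 1.4.2. The authors' own comparison columns, which hold fold changes, p-values, peaks and scores, were not used. No count column lacked a sample (0 such columns).

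From the deposited counts, CPM were computed over rows with a symbol. The 495 of 31117 rows without one held 0.902% to 1.04% of reads. Log2 ratios had 1 read added per library, a minimum of 20 reads per pair (in the input-corrected ratio for both pairs), and 95% intervals from Poisson counting error. PCR copies are not independent molecules, so intervals and floors cover counting error only. With 1 library per group no test was run. The deposited RPKM gave the library totals used as an alternative scaling; TMM (edgeR 4.0.16) and median-of-ratios (DESeq2 1.42.0, R 4.3.3) served as scalings only. Scripts (Python 3.11.15, pandas 2.3.3, NumPy 2.4.6) were tested on simulated data. Members were matched to mm10 sequence (GRCm38.p6) and its GENCODE annotation, and 138 of 155 regions lay inside an exon of their own transcript. Members and gene lists were chosen with earlier results of these data known. Genes named were, per kind of ratio, the 8 highest and 8 lowest members with 50 or more reads, all members called in the same direction in both genotypes or treatments, the 10 highest by level, and carriers of known macrophage function. Others were named after their values were seen. Results for 1 member are not reported here.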

Additional observations from a re-analysis of the deposited data

Results flagged for a closer look

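Members are given here whose 2 groups of cells lay on opposite sides of 0 with counting intervals that do not include it. With 1 library per group these differences were not tested. Slc16a6, a carrier of the monocarboxylate family whose region is overlapped by Amz2, had a log2 ratio of WT over KO RIP of −0.75 untreated and 0.54 with LPS. In the Input, Slc48a1, the haem carrier, was higher in WT untreated, at 0.35, and lower with LPS, at −0.33. Slc6a6, the taurine carrier, had 0.11 and −0.33.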

How the results depend on the processing

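No paired analysis was possible because each group holds 1 library. The limits are those of depth: the KO RIPs hold the fewest reads, and with 1 read added low members lie closer to 0. A count was held to have moved when it changed by over 1.5 times, and a median when it left the 95% interval of the main median over members. Members share the same libraries and are not replicates, so this interval is only a yardstick for the size of a shift. By that measure taking the longest region, counting a CPE in any region of the gene, and leaving out members overlapped by another gene moved no count or median. The last took the members higher with LPS from 22 to 19 in WT Input and from 21 to 19 in KO Input. Of 2034 alternative values of the 339 called values of named members, 1907 kept their sign and stayed inside the counting interval of the value as reported, 125 kept their sign but left it, and 2 turned sign. The 2 were under library totals: Slc45a4 in the LPS RIP of WT over KO, from −1.10 to 0.040, and Slc35a4 in the input-corrected LPS ratio, from −1.11 to 0.087. The causes of the changes below were not tested beyond what each setting alters, and the shares of all genes under these settings are not given. The proportional addition of reads and the leaving out of overlapped members were chosen after seeing the data.

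With 0.5 reads added, or reads added in proportion to depth, members lower in WT in untreated Input went from 1 to 2, and where the interval had to leave out 0, those higher went from 2 to 1. Under TMM the members' median LPS change went from −0.29 to −0.071 in KO Input, from −0.18 to 0.029 in the WT RIP and from −0.07 to 0.21 in the KO RIP, and members higher in the LPS KO RIP than in Input from 5 to 9. Under median-of-ratios the KO Input median went from −0.29 to −0.10, the LPS Input median of WT over KO from 0.11 to 0.031 and the WT RIP median from −0.18 to 0.050.

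With a minimum of 50 reads, members lower with LPS went from 29 to 18 in WT Input, from 29 to 19 in the WT RIP and from 24 to 8 in the KO RIP. Those higher in WT in untreated Input went from 2 to 0. Those higher in the KO RIP than in Input went from 10 to 5 untreated and from 5 to 3 with LPS. Those lower in the WT than the KO RIP went from 9 to 5 and from 17 to 11, and after input correction from 11 to 5 and from 18 to 11. With no minimum, the same counts were 44 (WT Input), 46 (KO RIP), 4 (with 4 lower, and 1 lower with LPS), 21 and 15, 20 and 29, and 27 and 32. Input-corrected members higher were then 23 and 20.

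With 1.5-fold as the call, Input members higher and lower in WT were 12 and 6 untreated and 15 and 4 with LPS. RIP over Input gave 31 and 60 in untreated WT, 16 and 52 in untreated KO, and 14 and 47 in LPS KO. RIP WT over KO gave 31 and 30 untreated and 37 and 28 with LPS, and after input correction 27 and 28, and 27 and 35. Members lower with LPS were 50 in the WT RIP, and those higher 31 in the KO RIP.

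Under library totals, members higher in the WT RIP than in Input with LPS went from 24 to 39, with a median of 0.21. In KO, higher and lower were 2 and 68 untreated (median −1.14) and 1 and 58 with LPS (median −1.05). RIP WT over KO gave 59 and 0 untreated (median 0.77) and 80 and 2 with LPS (median 1.25), and after input correction 43 and 2 (median 0.80) and 61 and 2 (median 1.05). The WT RIP had 17 members lower with LPS, with a median of 0.34. Input-corrected medians with no predicted CPE were 0.57 and 0.86, and with any 0.86 and 1.41.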
